A study of Mus musculus with 3 samples.

Results

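The genes of the matrix metalloproteinases (symbols of Mmp plus a number), the ADAM proteases (Adam plus a number), the ADAMTS proteases (Adamts plus a number) and the 4 tissue inhibitors of metalloproteinases (Timp1 to Timp4) were followed through the cell classes of the mouse gallbladder. Of 31053 genes in the matrix, 71 symbols had one of these forms, and the 55 with at least 20 UMIs (unique molecular identifiers, each marking 1 captured mRNA molecule) over all cell barcodes are the members described here. They comprise 19 Mmp, 16 Adam, 16 Adamts and 4 Timp genes and held 441480 UMIs in all, of which 165180 were of Mmp, 62563 of Adam, 84077 of Adamts and 129660 of Timp genes. Just inside the limit lay Mmp10 with 39 UMIs and Adam5 with 51, and just outside lay Adam3 with 18 and Mmp27 and Adamts13 with 14 each. Of the 16 symbols below the limit, 6 had no UMI.

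The study compared gallbladders of male C57BL/6 mice given nanoplastics by oral gavage over 3 weeks, of mice given nanoplastics over 6 weeks, and of mice given vehicle over 6 weeks. Each group was 1 pool of 10 gallbladders, digested with trypsin and run as 1 droplet library of 3′ mRNA ends. The cells stood in 1 matrix, in which a number after each barcode (1, 2 or 3) marks the library, and the labels used here do not tie these numbers to the groups. Values are therefore given for libraries 1, 2 and 3 as they stand, with no comparison of exposed with vehicle mice, no replicates and no test between libraries.

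Libraries 1, 2 and 3 held 5643, 11827 and 10230 barcodes and 72943584, 121349261 and 58172348 UMIs, and 4263, 10933 and 9797 cells were kept, with medians of 10381, 9330 and 2288 UMIs per cell. Library 3 was thus the shallowest per cell, and pairs of libraries shared only 15 to 22 barcode sequences. The kept cells fell into 29 clusters, made without any protease or inhibitor gene and named from marker lists. The epithelium that a gallbladder sample should hold was there, with all 8 of its markers detected in each epithelial-like cluster, and 15 classes were used in all. A class of 95 rod photoreceptor-like cells, all in library 1, does not belong to the labelled tissue and was left out. A macrophage-like cluster of 141 cells, 136 of them in library 1, carried Xist at 814 CPM (UMIs of the gene per 1000000 UMIs of the class) although the labels give male mice, and a fibroblast-like cluster of 735 cells carried the epithelial Krt8 at 2338 CPM. Without those 2 clusters all 55 members kept their leading class.

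Matrix metalloproteinases are zinc enzymes, secreted or held at the cell membrane, that cut collagens, elastin, proteoglycans and many soluble proteins. ADAM proteases sit in the cell membrane and shed the outer parts of other membrane proteins, such as growth factor precursors, tumour necrosis factor and Notch. ADAMTS proteases are secreted and act on proteoglycans such as versican, on the ends of procollagens and on microfibrils. TIMPs bind these enzymes and block them, and in a tissue with a thin lamina propria, a muscle coat and a serosa the source of each enzyme and inhibitor can lie in different layers.

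Several Mmp genes lie side by side in the genome but were read in different cells, so their start regions are shown first. A stretch of 427.1 kb of chromosome 9 (GRCm38) holds, all on the plus strand, Mmp13, Mmp12, Mmp3, Mmp10, Mmp8, Mmp27, Mmp20 and Mmp7. Mmp13 and Mmp12 were highest in macrophage-like cells, Mmp3 in fibroblast-like cells, Mmp8 in neutrophil-like cells and Mmp7 in epithelial-like cells. Mmp10 and Mmp20 did not reach 20 UMIs in the class in which they led, and Mmp27 had 14 UMIs in all. The 150 bases before the start of 6 of these genes are given below from RefSeq on GRCm38.p6, 5′ to 3′ on the gene's strand, at chr9:7272364-7272513, chr9:7445672-7445821, chr9:7502192-7502341, chr9:7691940-7692089, chr9:7344247-7344396 and chr9:7558279-7558428 in the order of the lines. They are shown because neighbours read in different cell classes carry or lack the same short motifs. Capitals mark TGACTCA on either strand, the AP-1 site bound by Fos and Jun proteins, and TATAAA on either strand, the TATA box; the 2 motifs share no base in these windows.
Mmp13: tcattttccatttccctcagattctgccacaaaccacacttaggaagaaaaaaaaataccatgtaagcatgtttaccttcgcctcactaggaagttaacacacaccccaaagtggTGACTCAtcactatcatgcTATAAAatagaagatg
Mmp3: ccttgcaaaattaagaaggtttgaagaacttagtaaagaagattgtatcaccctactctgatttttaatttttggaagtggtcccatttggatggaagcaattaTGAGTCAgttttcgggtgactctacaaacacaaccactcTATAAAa
Mmp10: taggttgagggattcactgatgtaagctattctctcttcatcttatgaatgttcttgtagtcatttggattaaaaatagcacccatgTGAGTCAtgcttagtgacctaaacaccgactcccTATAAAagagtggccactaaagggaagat
Mmp7: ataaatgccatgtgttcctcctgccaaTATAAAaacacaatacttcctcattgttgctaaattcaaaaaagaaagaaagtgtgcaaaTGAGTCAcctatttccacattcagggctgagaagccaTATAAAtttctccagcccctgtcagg
Mmp12: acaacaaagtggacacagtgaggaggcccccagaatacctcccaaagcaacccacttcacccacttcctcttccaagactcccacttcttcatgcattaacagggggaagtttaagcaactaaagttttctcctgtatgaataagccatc
Mmp8: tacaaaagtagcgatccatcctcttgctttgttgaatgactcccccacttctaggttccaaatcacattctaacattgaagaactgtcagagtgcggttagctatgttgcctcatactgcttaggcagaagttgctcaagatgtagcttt

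Within these windows the first base of TGACTCA stood at position -35 in Mmp13, -46 in Mmp3, -63 in Mmp10 and -63 in Mmp7, counted back from the RefSeq start, and TATAAA at -16 in Mmp13, -7 in Mmp3, -29 in Mmp10 and, as the first of 2 copies, -123 in Mmp7. The windows of Mmp12 and Mmp8 held neither. The 4 genes that shared both motifs were highest in macrophage-like (Mmp13), fibroblast-like (Mmp3) and epithelial-like cells (Mmp7), with Mmp10 hardly detected. RefSeq start regions were at hand for 33 of the 55 members; 5 of them (15.2%) held the AP-1 site, the fifth being Adam19 at -131, against 933 of 32851 start regions of the same length over all genes (2.84%). TATAAA was in 6 of the 33 (18.2%), with Mmp20 and Adamts1 beside the 4, against 7.57% of all. A match of letters is a description of these windows and not a measured binding site.

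**Figure D1:**
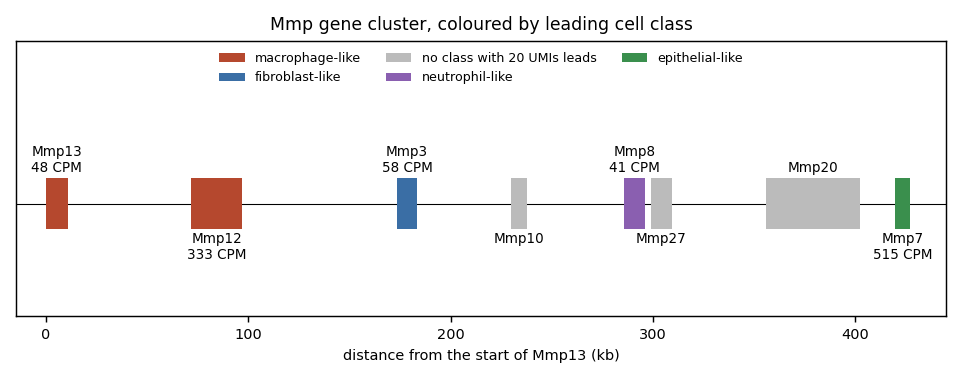
Gene map of the chromosome 9 Mmp stretch, with distance from the start of Mmp13 in kb on the horizontal axis; boxes are gene bodies, coloured by the cell class with the highest level, and the CPM in that class is printed beside each gene. Neighbouring genes had 4 different leading classes, and 3 of the 8 genes, in grey, had no leading class with 20 UMIs.

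The level of a member in a class is the sum of its UMIs over the cells of the class as a share of all UMIs of that class, in CPM, and the class with the highest level over all libraries is called its leading class. UMIs of 3′ ends count molecules and do not grow with gene length. Intervals are exact Poisson 95% intervals and cover counting error only, not differences between animals, pools or libraries. A member is called present in a class at 10 CPM and 20 UMIs or more. By this rule 38 of the 55 members were present in their leading class (69.1%), against 62.0% of 17453 genes with 20 or more UMIs, which is near the background. They were 13 Mmp, 10 Adam, 11 Adamts and 4 Timp genes.

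Fibroblast-like cells led for 16 of the 55 members (29.1%), against 4.83% of 17453 genes with 20 or more UMIs: 7 Mmp genes, 7 Adamts genes, Adam5 and Timp2. Macrophage-like and neutrophil-like cells led for 5 members each (9.09%), against 4.26% and 8.12% of all genes. Pericyte-like cells led for 4 (7.27%), against 5.35%, and smooth muscle-like and endothelial-like cells for 3 each (5.45%), against 4.61% and 6.95%. Epithelial-like, mesothelial-like and lymphatic endothelial-like cells led for 2 each (3.64%), against 7.23%, 6.74% and 8.17%. Schwann/glia-like cells led for 9 (16.4%), against 17.0%, but this class held only 86 cells and 198913 UMIs, and 7 of those 9 leads rested on fewer than 20 UMIs. The same class led in all 3 libraries for 25 members (45.5%), against 26.0% of all genes tested. A level at least 2-fold above the next class was seen for 27 members (49.1%), against 25.5% of all genes, and 19 of the 27 were present by the rule above. These are counts of named genes, chosen with earlier results of these data known, and no test was made of them.

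**Figure D2:**
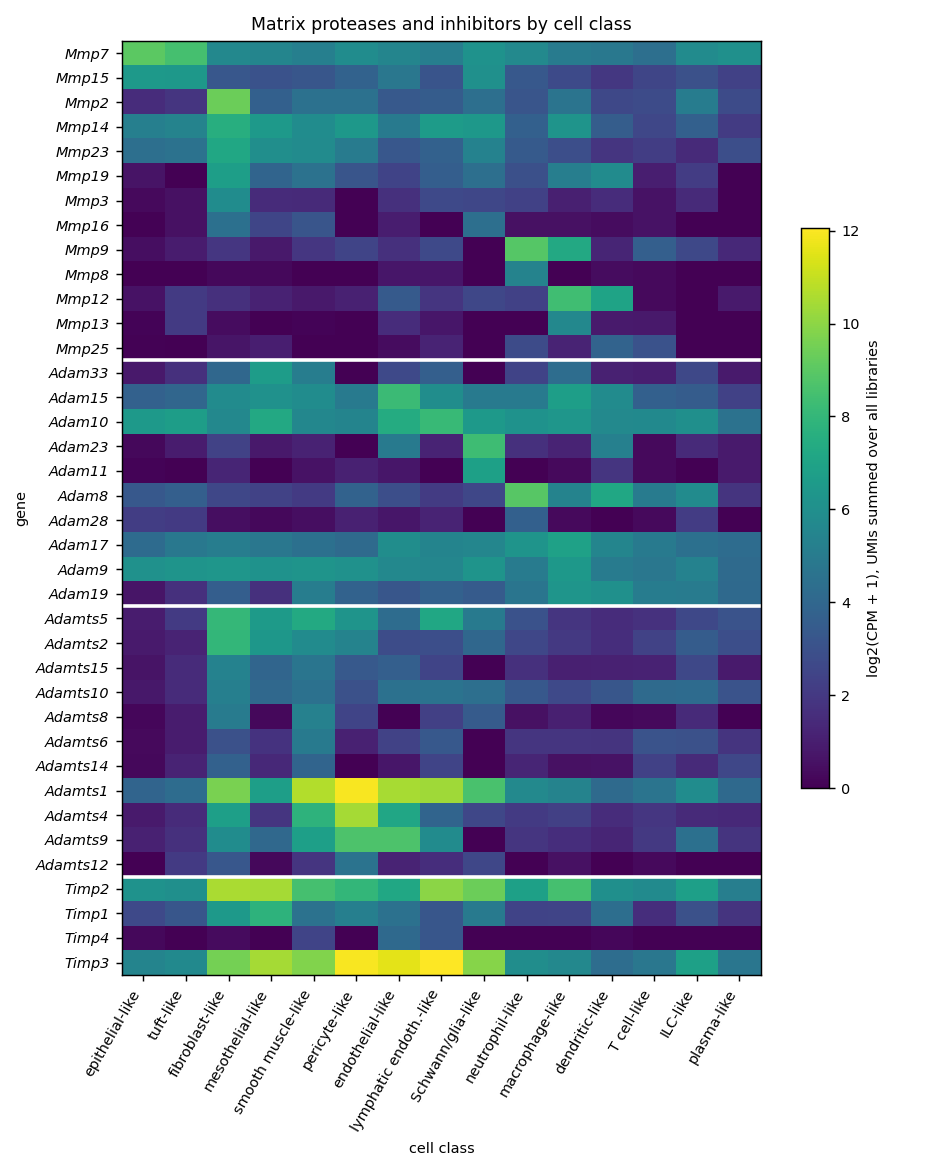
Heat map of the 38 members present in their leading class (rows, grouped into Mmp, Adam, Adamts and Timp genes by white lines) in 15 cell classes (columns); colour is log2(CPM + 1) of UMIs summed over all libraries. Mmp genes split between epithelial-like, fibroblast-like and myeloid columns, while Adamts1 and Timp3 are bright across the pericyte-like and both endothelial-like columns.

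Among the metalloproteinases, 2 were highest in the epithelium. Mmp7, matrilysin, a small secreted enzyme that in mouse intestine activates defensin peptides, was at 495, 513 and 553 CPM in epithelial-like cells of libraries 1, 2 and 3 (515 CPM over all, 512 to 519), and these cells held 96.4% of its UMIs among the classes. Over the whole class the libraries lay close together, but inside its clusters they did not. Tuft-like cells, named for chemosensory cells of the same lining, had 358 CPM, and every other class lay between 20.4 and 70.4 CPM. All 8 epithelial markers were detected in the tuft-like class too, and 25 of its 122 cells passed a gate on tuft markers cell by cell. Its level is thus that of a mixed class. Mmp7 differed between the epithelial-like clusters. It was at 881 CPM in the cluster led by Chil4 and Lcn2, against 199 and 246 CPM in the 2 clusters with the most Aqp1 (904 and 1217 CPM of Aqp1), and 558 and 649 CPM in the other two. The Chil4 and Lcn2 cluster had 827, 893 and 1742 CPM of Mmp7 by library, from 671, 2130 and 39 cells. In the cluster led by Chil4 and Tff2 it was at 380, 472 and 1082 CPM, and in the larger Aqp1-rich cluster at 139, 221 and 305 CPM. Library 3 was the highest inside each of these 3 clusters, while 924 of its 1518 epithelial-like cells lay in the other Aqp1-rich cluster, at 253 CPM of Mmp7. The Chil4 and Lcn2 cluster was above the larger Aqp1-rich one in every library, and the order of the other clusters differed between libraries.

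Some Mmp7 UMIs were found in every class, and were set beside those of Krt8, an epithelial keratin, in the same cells. Epithelial-like cells had 9.84, 10.3 and 16.7 Mmp7 UMIs per 100 Krt8 UMIs in libraries 1, 2 and 3. Fibroblast-like cells had 4.55, 7.93 and 20.8, and macrophage-like cells 5.79, 9.18 and 14.8, so that the ratio was highest in library 3 in all 3 classes. The fibroblast-like ratio draws on the cluster with Krt8 at 2338 CPM, where Mmp7 was at 115, 168 and 576 CPM by library. Over all libraries that cluster had 373 CPM of Mmp7, against 14.95 to 27.3 CPM in the other fibroblast-like clusters. Mesothelial-like cells, which have Krt8 of their own, stood apart with 1.40, 3.77 and 3.03. In library 3 the ratio was above that of epithelial-like cells in dendritic-like (33.3), ILC-like (28.4), Schwann/glia-like (24.5), endothelial-like (18.9) and plasma-like cells as well. With each cell thinned to 1000 UMIs, 34.0% of 9309 epithelial-like cells had an Mmp7 UMI, against 3.00% of 1431 T cell-like cells, a class that should lack the gene; without thinning the shares were 84.0% and 4.98%, at median depths of 13507 and 2085 UMIs. Thinning left out 51 epithelial-like and 155 T cell-like cells as too shallow. Whether the Mmp7 UMIs outside the epithelium came from free RNA was not tested.

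Mmp15, a membrane-type metalloproteinase, was at 91.5, 87.4 and 99.9 CPM in epithelial-like cells of the 3 libraries (90.7 CPM over all, 89.3 to 92.2). Tuft-like cells had 106, 74.3 and 82.2 CPM, above epithelial-like cells in library 1 and below them in the other two. The tuft-like class was small and mixed: it had 122 cells, of which 25 passed a gate on tuft markers cell by cell. Schwann/glia-like cells followed at 65.4 CPM from 13 UMIs and endothelial-like cells at 26.4 CPM.

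Fibroblast-like cells had the highest levels of Mmp2, Mmp14, Mmp23, Mmp19, Mmp3 and Mmp16. Counted in UMIs, the larger epithelial-like class held more than they did of Mmp14 (6177 against 3987) and of Mmp23 (3521 against 3023). Mmp2, gelatinase A, which cuts denatured collagen and basement membrane collagen, was at 875, 811 and 406 CPM in libraries 1, 2 and 3 (651 CPM over all, 640 to 662), 19.8-fold above the next class, ILC-like cells with 33.0 CPM from 19 UMIs. Libraries 1 and 2 lay near each other and library 3 lower. Mmp14, the membrane-type enzyme that activates pro-MMP2 at the cell surface with the help of TIMP2, was at 195, 169.5 and 199 CPM (191 CPM over all, 185 to 197) and was present in 11 classes, with 96.2 CPM in lymphatic endothelial-like, 91.7 CPM in mesothelial-like and 36.0 CPM in epithelial-like cells. Unlike Mmp2 it did not stand lower in library 3, and inside the 2 largest fibroblast-like clusters library 3 was its highest, with 219.5, 197.5 and 314 CPM in the cluster led by Ccl11 and Postn and 133, 82.9 and 151 CPM in that led by Sfrp1 and Smoc2.

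Mmp23, a membrane-anchored enzyme without the hemopexin domain of most family members, was at 119, 135 and 169 CPM in fibroblast-like cells. Mesothelial-like cells came next at 62.3 CPM, and epithelial-like cells had 20.5 CPM. Mmp19, a secreted metalloproteinase, was at 112, 133 and 88.5 CPM, and dendritic-like cells had 67.1, 34.3 and 78.2 CPM. Mmp3, stromelysin 1, which cuts proteoglycans and activates other pro-metalloproteinases, was at 16.3, 20.1 and 107 CPM (57.5 CPM over all, 54.3 to 60.9), with no other class above 5.24 CPM. Of the 8 Mmp genes highest in fibroblast-like or epithelial-like cells and present there, Mmp3 had the widest spread over libraries, 6.54-fold. Mmp16, a further membrane-type enzyme, was at 13.1, 11.5 and 31.5 CPM.

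The fibroblast-like class was made of 5 clusters that the libraries filled unequally. The cluster led by collagens, Ccl11 and Postn had 438, 756 and 512 cells in libraries 1, 2 and 3, whereas 892 of the 966 cells of the Inmt and Gdf10 cluster and 726 of the 777 cells of the Pi16 and Mfap5 cluster were in library 3. Mmp2 was highest in the Ccl11 and Postn cluster at 947 CPM, against 345 CPM in the Sfrp1 and Smoc2 cluster, 473 CPM in the Inmt and Gdf10 cluster and 369 CPM in the Pi16 and Mfap5 cluster. Inside the Ccl11 and Postn cluster alone it was at 1028, 960 and 679 CPM, and so still lower in library 3, by less than over the whole class. Mmp3 was highest in the Pi16 and Mfap5 cluster at 322 CPM, against 15.2 CPM in the Ccl11 and Postn cluster, and inside the Pi16 and Mfap5 cluster it was at 96.3, 182 and 348 CPM from 21, 30 and 726 cells. Mmp14 was at 228 CPM in the Ccl11 and Postn cluster and 225 CPM in the Pi16 and Mfap5 cluster, and Mmp19 at 146 and 60.04 CPM in the same clusters.

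**Figure D3:**
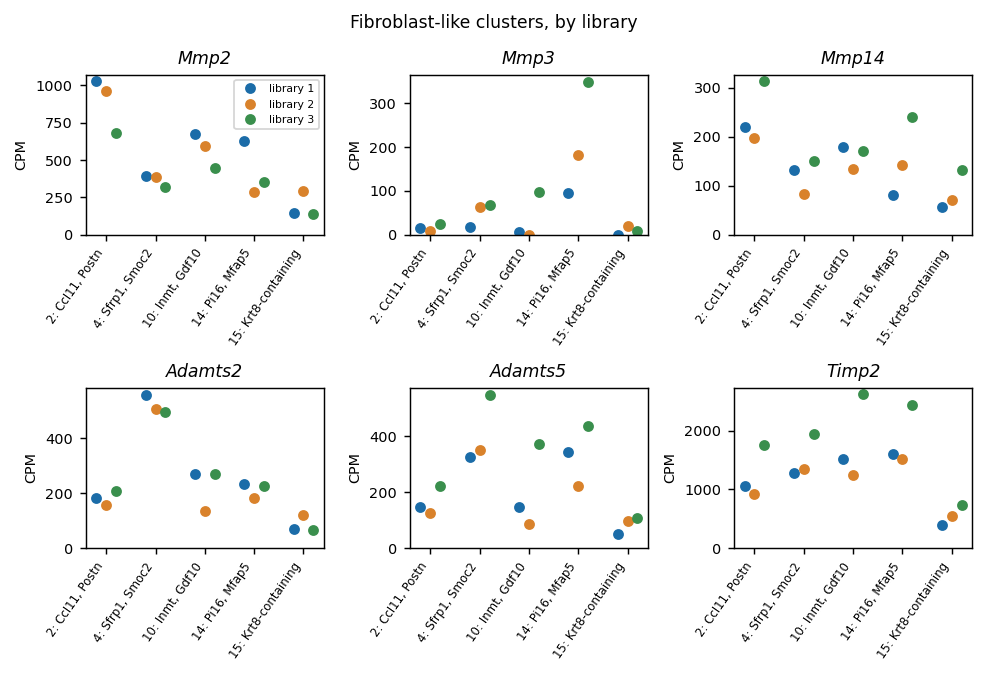
CPM of Mmp2, Mmp3, Mmp14, Adamts2, Adamts5 and Timp2 (panels, each axis from 0) in the 5 fibroblast-like clusters by library; each point is 1 cluster of 1 library. Mmp2 is highest in the Ccl11 and Postn cluster in every library, Adamts2 in the Sfrp1 and Smoc2 cluster, and Mmp3 in the Pi16 and Mfap5 cluster, whose library 1 and 2 points rest on 21 and 30 cells.

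Myeloid cells carried 5 more metalloproteinases. Mmp9, gelatinase B, stored in neutrophil granules, was at 442, 449 and 534 CPM in neutrophil-like cells (467 CPM over all, 439 to 497, and 269 CPM with doublets kept) and at 135, 134 and 233 CPM in macrophage-like cells, with no other class above 11.6 CPM. The levels of the 3 libraries overlapped in their intervals for neutrophil-like cells, although libraries 1 and 2 filled 1 cluster and library 3 another (576 of its 600 cells). Mmp8, the neutrophil collagenase, was at 58.7, 23.1 and 37.5 CPM in neutrophil-like cells, which held 92 of its UMIs, and no other class was above 0.655 CPM.

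Mmp12, macrophage elastase, was at 394, 404 and 45.7 CPM in macrophage-like cells (333 CPM over all, 317 to 350), an 8.85-fold range over libraries. Dendritic-like cells had 193, 52.3 and 140 CPM, and led in library 3. With cells gated one by one on markers, dendritic-like cells had 48.3 CPM over all, against 125 CPM without the gate. Gated macrophage-like cells had 381 CPM over all and 78.4 CPM in library 3. In the largest macrophage-like cluster taken alone, which had 312, 337 and 472 cells, Mmp12 was at 408, 405 and 43.3 CPM, so the low value of library 3 was there as well. Mmp13, collagenase 3, was at 49.5, 56.4 and 30.03 CPM in macrophage-like cells, with no other class above 3.10 CPM. In the same cluster Mmp9 was at 140, 134 and 233 CPM, and there library 3 was the highest. Mmp25, an enzyme tied to the membrane by a lipid anchor, was at 14.9, 13.4 and 10.9 CPM in dendritic-like cells.

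The other 6 Mmp members were low. Mmp17 had 468 UMIs and was at 24.3 CPM in smooth muscle-like cells from 252 UMIs, against 85.5 CPM in Schwann/glia-like cells from 17. Mmp11, stromelysin 3, reached 2.87 CPM in fibroblast-like cells. Mmp20, the enamel enzyme, and Mmp28, epilysin, had 289 and 247 UMIs in the large epithelial-like class, at 1.69 and 1.44 CPM, while their nominal lead rested on 1 UMI in Schwann/glia-like cells, as did that of Mmp24. Mmp10 had 29 of its 39 UMIs in fibroblast-like cells.

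Several ADAM genes were shared between many classes. Adam10, the sheddase of Notch receptors and cadherins, was at 366, 152 and 280 CPM in lymphatic endothelial-like cells (281 CPM over all, 255 to 309) and was present in 14 of the 15 classes, with 171 CPM in endothelial-like, 156 CPM in mesothelial-like and 90.4 CPM in epithelial-like cells. The value of library 2 came from 10 UMIs of 20 cells, with an interval of 72.7 to 279 CPM. Adam17, which sheds tumour necrosis factor and ligands of the epidermal growth factor receptor, was at 113, 114 and 150 CPM in macrophage-like cells (120 CPM over all, 110 to 131), and neutrophil-like cells followed with 73.1, 77.1 and 76.8 CPM. Adam9, a broadly acting sheddase, was at 83.2, 45.1 and 159 CPM in macrophage-like cells and at 17.3 CPM or more in every class, so that its leading class was only 1.08-fold above the next and differed between libraries.

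Adam8, a protease of granulocytes and other leukocytes, was at 617, 566 and 200 CPM in neutrophil-like cells (495 CPM over all, 466 to 525, and 292 CPM with doublets kept), 3.37-fold above dendritic-like cells with 160, 145 and 127 CPM. Library 3 was the low one here, with no overlap of intervals. Of its 600 neutrophil-like cells 576 lay in a cluster that held 5 cells of the other libraries, and Adam8 was at 189 CPM in those 576 and at 451 CPM in the 24 cells that shared a cluster with libraries 1 and 2. Adam19, which cuts neuregulin precursors, was at 62.4, 57.9 and 147 CPM in macrophage-like cells and at 65.7 CPM over all in dendritic-like cells. Adam28, a lymphocyte-associated protease in human, was at 12.1 CPM in neutrophil-like cells from 27 UMIs, although 602 of its 731 UMIs were in epithelial-like cells, at 3.51 CPM.

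Endothelial-like cells led for Adam15, a membrane protease with an integrin-binding domain, at 179, 174 and 444 CPM (296 CPM over all, 277 to 315, and 177 CPM without library 3), 2.79-fold above macrophage-like cells. Mesothelial-like cells, the serosal lining, led for Adam33, a gene linked to asthma in human, at 62.3, 47.1 and 121 CPM (99.7 CPM over all and 56.7 CPM without library 3), with smooth muscle-like cells next at 34.0 CPM over all. In both genes library 3 was the highest.

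Adam23, Adam11 and Adam22 encode members without protease activity that bind LGI proteins on neurons. Adam23 was at 451 CPM (340 to 585) in the 73 Schwann/glia-like cells of library 3, the only library with 20 or more such cells, and at 317 CPM over all. Over all libraries dendritic-like cells came next for Adam23, with 49.1, 37.2 and 18.8 CPM, but in library 3 endothelial-like cells were above them with 68.5 CPM, from 96 UMIs, and had none in libraries 1 and 2. Adam11 was at 116 CPM in Schwann/glia-like cells from 23 UMIs, with no other class above 2.69 CPM. Adam22 was at 21.1 CPM in fibroblast-like cells from 440 UMIs, where it was highest in the Inmt and Gdf10 cluster at 82.0 CPM, against 10.7 to 15.2 CPM in the other 4 clusters; its 45.3 CPM in Schwann/glia-like cells rested on 9 UMIs. Adam12, Adam30, Adam32, Adam4 and Adam5 stayed below 21 CPM in their leading classes over all libraries. Adam12 led in ILC-like cells from 12 UMIs, and T cell-like cells came next with 11.8 CPM from 47 UMIs. In the T cell-like cluster with Il17a among its leading genes, Adam12 was at 33.0, 27.5 and 20.9 CPM by library. Adam5, Adam32 and Adam9 are neighbours on the minus strand of chromosome 8 with Adam18 and Adam3, at chr8:24602246-25016927 (GRCm38). Of the members among these genes only Adam9 was above 2 CPM in any class over all libraries. Adam3 and Adam18 had 18 and 1 UMIs in all and are not members. Adam4 shares its strand with Cox16, so its UMIs are uncertain.

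The ADAMTS genes were highest in cells of the wall. Of the 11 present, 4 were led by fibroblast-like, 4 by pericyte-like and 3 by smooth muscle-like cells, against 16.2% of 10822 genes present in their leading class that these 3 classes led together. With cells gated one by one on markers, Adamts14 was led by natural killer cells instead, at 76.05 CPM from 9 UMIs. Adamts1, a versican-cutting protease, was the highest ADAMTS gene, at 4183, 3004 and 6813 CPM in pericyte-like cells (3967 CPM over all, 3835 to 4101), with 1641 CPM in smooth muscle-like, 1435 CPM in endothelial-like and 1318 CPM in lymphatic endothelial-like cells. Adamts4, an aggrecanase, was at 1680, 1035 and 1173 CPM in pericyte-like cells (1413 CPM over all, 1335 to 1494). Over all it stood 6.37-fold above the smooth muscle-like class taken as a whole. Adamts9, which cuts versican and aggrecan, was at 456, 342 and 526 CPM in pericyte-like cells and 534, 507 and 277 CPM in endothelial-like cells, so that pericyte-like cells led in library 3 and endothelial-like cells in libraries 1 and 2. Adamts12 was at 23.1 CPM in pericyte-like cells from 20 UMIs.

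Smooth muscle-like cells held 2 clusters with unlike ADAMTS levels. The cluster with Sparcl1 and Mustn1, of whose 661 cells 584 were in library 3, had Adamts1 at 5010 CPM, against 720 CPM in the cluster rich in Actg2 and Des. The contrast was there in each library, with 3645, 3119 and 5390 CPM against 629, 622 and 833 CPM. Set beside pericyte-like cells of the same library, the Sparcl1 cluster was lower in Adamts1 in libraries 1 and 3 and higher in library 2. Adamts4 was at 708, 760 and 453 CPM in the Sparcl1 cluster, below pericyte-like cells in every library. In the Actg2 cluster Adamts4 was at 195, 209 and 75.5 CPM. Adamts6, a relative of the fibrillin-binding Adamts10, showed the opposite, at 1.35 CPM in the Sparcl1 cluster and 37.0 CPM in the Actg2 cluster, and over the whole smooth muscle-like class it was at 27.8, 29.1 and 30.2 CPM, 3.20-fold above the next class. Adamts15, a further versican-cutting protease, was at 23.4, 14.1 and 126 CPM in the Sparcl1 cluster, from 31, 46 and 584 cells, against 2.58, 1.91 and 4.57 CPM in the Actg2 cluster. Adamts8 was at 33.5, 38.4 and 40.7 CPM in smooth muscle-like cells and 34.7, 23.9 and 34.2 CPM in fibroblast-like cells, higher in smooth muscle-like cells in libraries 2 and 3 and lower in library 1.

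In fibroblast-like cells Adamts5, the aggrecanase that also clears versican, was at 167, 154 and 382 CPM (260 CPM over all, 253 to 267, and 162 CPM without library 3). Lymphatic endothelial-like cells, with 20 cells each in libraries 1 and 2, had 215, 182 and 138 CPM and led in those 2 libraries. Adamts2, which removes the amino-terminal propeptide of fibrillar procollagens, was at 228, 199 and 299 CPM in fibroblast-like cells (253 CPM over all, 246 to 260), 3.07-fold above mesothelial-like cells. The other 2 procollagen peptidases were low: Adamts14 was at 13.98 CPM in smooth muscle-like and 12.6 CPM in fibroblast-like cells, and Adamts3 at 4.17 CPM in fibroblast-like cells. Adamts2 and Adamts5 were both highest over all in the Sfrp1 and Smoc2 cluster, at 510 and 474 CPM. They were at 178 and 152 CPM in the Ccl11 and Postn cluster, the one in which Mmp2 was highest. In the Pi16 and Mfap5 cluster they were at 224 and 420 CPM, and in the Inmt and Gdf10 cluster at 266 and 339 CPM. In library 1 Adamts5 was higher in the Pi16 and Mfap5 cluster, at 345 CPM from 21 cells. Adamts2 kept to 560, 507 and 496 CPM over the libraries inside the Sfrp1 and Smoc2 cluster, whereas Adamts5 was at 325, 351 and 549 CPM there. Adamts15 and Adamts10 were at 17.5, 17.2 and 67.5 CPM and at 19.4, 21.3 and 54.5 CPM in fibroblast-like cells. Both stood highest in library 3, and without it they were at 17.4 and 20.2 CPM, against 39.7 and 35.5 CPM with it.

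Neighbouring ADAMTS genes differed in their leading class as well. Adamts1 (chr16:85793827-85803113, minus strand, GRCm38) and Adamts5 (chr16:85856173-85901828, minus strand) lie side by side, the first led by pericyte-like and the second by fibroblast-like cells. Adamts15 (chr9:30899155-30922452, minus strand) and Adamts8 (chr9:30942562-30963838, plus strand) lie side by side too, and were led by fibroblast-like and smooth muscle-like cells. Adamts19, Adamts7, Adamts17 and Adamts20 stayed below 10 CPM in every class over all libraries. In library 3 alone Adamts19 was at 17.1 CPM in fibroblast-like cells (14.5 to 20.0). It was at 33.8 CPM over all in their Inmt and Gdf10 cluster.

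Of the inhibitors, Timp3 was the highest, in the cells of vessels. TIMP-3, which binds to the matrix and also blocks ADAM17 and aggrecanases, had 4292, 2290 and 4392 CPM of its mRNA in lymphatic endothelial-like cells (4293 CPM over all, 4189 to 4398) and 4294, 2662 and 7459 CPM in pericyte-like cells (3959 CPM over all). Pericyte-like cells thus had the higher value in each library, although in libraries 1 and 2 it lay inside the interval of lymphatic endothelial-like cells. The pooled order turned because 230 of the 270 lymphatic endothelial-like cells came from library 3, where Timp3 was high, and 40 of the 214 pericyte-like cells. Endothelial-like cells had 2456, 2415 and 3759 CPM and mesothelial-like cells 1467, 946 and 1470 CPM. Epithelial-like cells had 42.4 CPM over all.

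Timp2, which inhibits metalloproteinases and takes part in pro-MMP2 activation, was at 1074, 955 and 2045 CPM in fibroblast-like cells (1480 CPM over all, 1463 to 1496) and at 1302, 1373 and 1409 CPM in mesothelial-like cells. Mesothelial-like cells were the higher in libraries 1 and 2 and fibroblast-like cells in library 3. In the Ccl11 and Postn cluster alone Timp2 was at 1054, 912 and 1754 CPM, so that library 3 was the highest inside that cluster too. Timp2 was in addition at 365 CPM in macrophage-like cells, and in the epithelium at 124 CPM in the Lcn2-rich cluster against 12.4 CPM in the larger Aqp1-rich one.

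Timp1, a soluble inhibitor induced in many injured tissues, was at 343, 146 and 195 CPM in mesothelial-like cells (220 CPM over all, 207 to 233), 2.42-fold above fibroblast-like cells with 132, 95.4 and 58.8 CPM. Timp4 was low, with 166 UMIs in all. It was at 3.64, 0 and 33.5 CPM in endothelial-like cells, where 3 counts would have been 2.73, 4.65 and 2.14 CPM, so that only library 3 held it clearly above that floor, with 47 UMIs. Without library 3 it was at 2.30 CPM, against 16.2 CPM with it. The Sparcl1 cluster of smooth muscle-like cells had Timp4 at 24.7 CPM in library 3. Timp1, Timp3 and Timp4 each overlap a synapsin gene (Syn1, Syn3 and Syn2) on the other strand, and whether the counting used strand is not given in the sources used here. Timp2 overlaps Cep295nl on the same strand, and how reads in a shared stretch were counted is not given either.

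The spread over libraries was unequal between members. Of the 45 members whose leading class had 20 or more cells in every library, the highest library was at least 2-fold above the lowest for 26 (57.8%), against 49.5% of 14094 genes, which is near the background; the 2 members with a library at 0, Timp4 and Adam30, count among the 26. Over the 43 others the median range was 2.19-fold. Of the 28 members plotted by library, Mmp7 with 1.12-fold, Mmp15 with 1.14-fold and Mmp14 with 1.17-fold had the narrowest ranges over the whole class, and Mmp12 with 8.85-fold, Adamts15 with 3.93-fold and Adam9 with 3.51-fold were wide, as was Timp4 with its library at 0. Of the rest, Adamts6 had 1.09-fold, Mmp3 6.54-fold, Adamts14 9.71-fold and Adam12 10.5-fold, the last from 12 UMIs. A narrow range over a class can hide wider ones in its clusters, as shown above for Mmp7 and Mmp14. Library 3 had the lowest depth per cell and its own mix of clusters, and their part in these ranges was not tested.

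**Figure D4:**
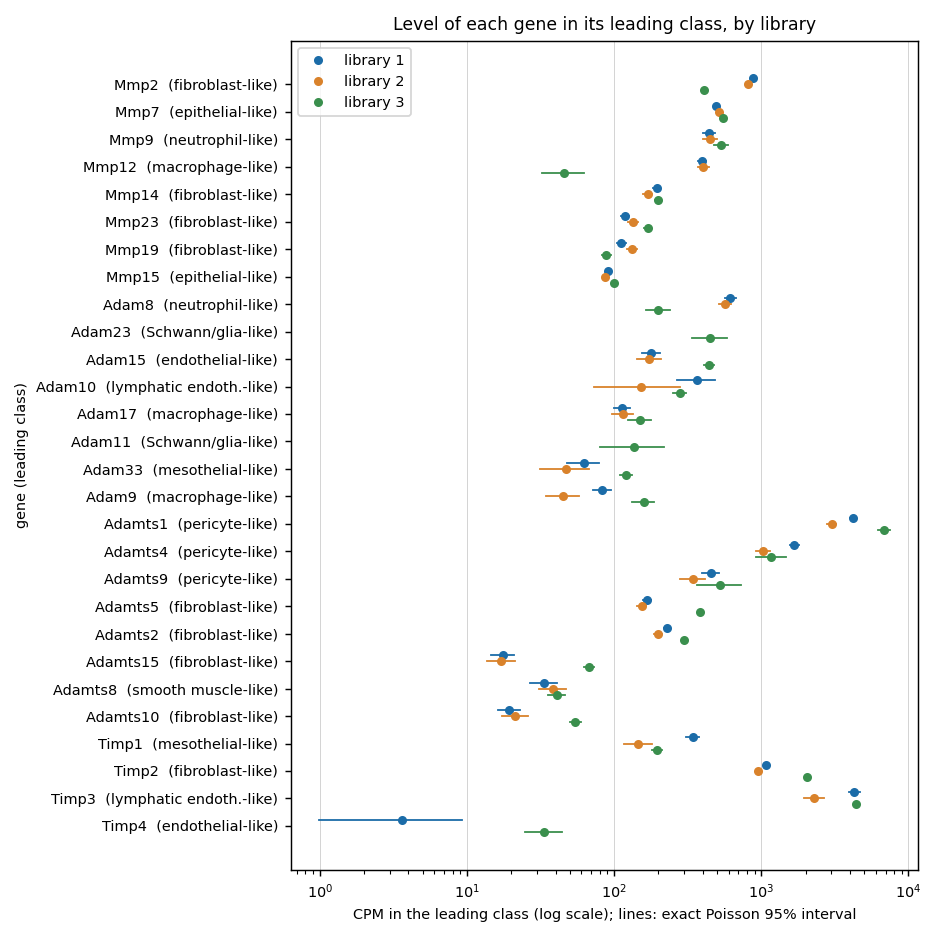
CPM (log scale) in the leading class for 28 members, up to 8 of each family by level, with each class in brackets; points are libraries 1, 2 and 3 and lines are exact Poisson 95% intervals. Libraries with fewer than 20 cells of the class are not drawn, and Timp4 in library 2, at 0, cannot be shown on this axis. Mmp7, Mmp14 and Mmp15 lie together over the libraries, while Mmp12 and Adam8 lie lowest in library 3.

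Set against each other within a class, inhibitor and metalloproteinase mRNA gave unlike balances. The UMIs of Timp1 to Timp4 summed to 0.175 per Mmp UMI in epithelial-like cells, 0.237 in tuft-like, 0.287 in neutrophil-like, 0.409 in dendritic-like and 0.586 in macrophage-like cells. Fibroblast-like cells had 1.86, smooth muscle-like cells 5.28, mesothelial-like cells 12.2, pericyte-like cells 18.4, endothelial-like cells 22.3 and lymphatic endothelial-like cells 26.4. The ratio was above 1 in 9 of 15 classes over all libraries, and in 7 of 13, 7 of 14 and 11 of 15 classes in libraries 1, 2 and 3. Fibroblast-like cells were at 1.44, 1.19 and 2.66, and macrophage-like cells at 0.529, 0.441 and 1.13, in both cases highest in library 3. T cell-like cells were at 0.893, 0.917 and 2.06. Timp3, which entered the Timp sums, was also highest in library 3 in classes where it was low elsewhere. It was at 27.05, 22.6 and 153 CPM in macrophage-like and 15.5, 4.65 and 139 CPM in T cell-like cells. Whether those Timp3 UMIs came from free RNA was not tested. Mmp7 entered the Mmp sums in every class. Without it the ratio was above 1 in 10 of 15 classes over all libraries, and in 8 of 13, 9 of 14 and 11 of 15 classes in libraries 1, 2 and 3. The largest shifts were in epithelial-like cells to 0.756, tuft-like cells to 0.758 and plasma-like cells to 2.48, against 0.694 with Mmp7 in plasma-like cells. Pericyte-like cells of library 2 had 17.6 without Mmp7 and 9.69 with it. In epithelial-like cells, 515 of the 671 CPM of Mmp mRNA were Mmp7. In lymphatic endothelial-like cells the 20-cell groups of libraries 1 and 2 had only 11 and 13 Mmp UMIs. A ratio of mRNA sums is not a ratio of proteins or of activity.

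**Figure D5:**
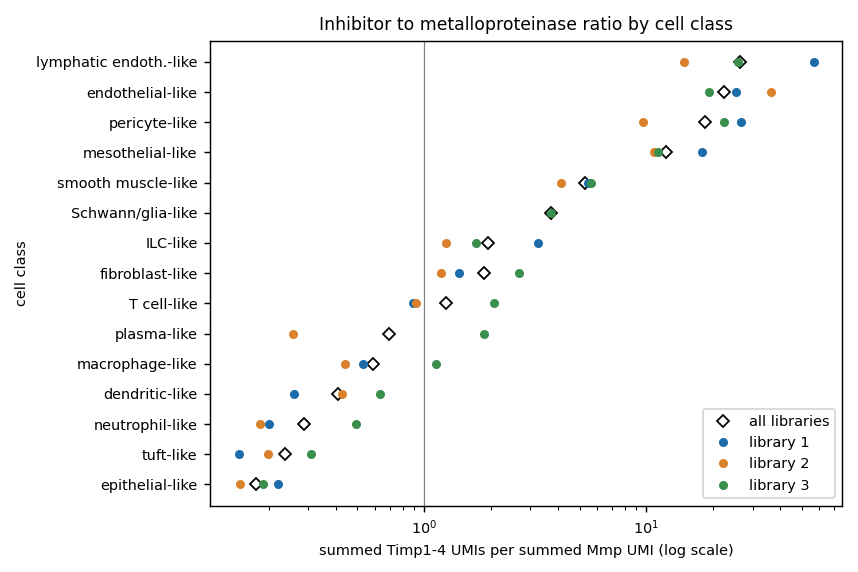
Summed Timp1 to Timp4 UMIs per summed Mmp UMI (log scale) in 15 cell classes, lowest at the bottom; open diamonds are all libraries together, coloured points single libraries with 20 or more cells of the class, and the vertical line marks 1. Epithelial-like and myeloid classes lie left of the line over all libraries and mural, endothelial and mesothelial classes right of it.

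Genes that act with the proteases were read in the same classes, from lists given in full whatever their level, and are set against the 62.0% of all genes that were present in their leading class. Of 8 genes of the plasminogen system, which activates several pro-metalloproteinases, 5 were present in their leading class, the highest being the urokinase receptor Plaur with 1140 CPM in epithelial-like cells and tissue plasminogen activator Plat with 478 CPM in lymphatic endothelial-like cells. Of 7 genes listed as other inhibitors, clearance genes or surface proteins, 5 were present. The highest were the hyaluronan receptor Cd44 with 1303 CPM in neutrophil-like cells and the endocytic receptor Lrp1 with 531 CPM in fibroblast-like cells. Of 6 ADAMTS-like genes, which lack the protease domain, 5 were present, led by Adamtsl1 with 131 CPM in mesothelial-like cells and Adamtsl2 with 102 CPM in fibroblast-like cells.

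Of 12 partners and activators of ADAM10, ADAM17 and metalloproteinases, 10 were present. The highest were Bsg, an inducer of metalloproteinases, with 1767 CPM in mesothelial-like cells, and the proprotein convertase Furin with 599 CPM in ILC-like cells. Of 13 shed substrates of ADAM10 and ADAM17, 12 were present, the highest being the growth factor precursors Hbegf with 1814 CPM in epithelial-like cells, where Adam10 was at 90.4 and Adam17 at 17.5 CPM, and Areg with 658 CPM in ILC-like cells. Of 12 matrix substrates 9 were present. The highest were Col4a1 with 1362 CPM in pericyte-like cells and Fn1 with 896 CPM in fibroblast-like cells, and Acan, Bcan and Ncan, with 6, 3 and 3 UMIs, were hardly detected.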

How the data were processed

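Single-cell 3′ mRNA libraries of mouse gallbladder were deposited as 1 matrix of UMI counts per gene and barcode; the authors made these counts with Cell Ranger 6.1.1 on GRCm38 (mm10), per the submitters' processing notes. From there, barcodes with fewer than 300 genes (1015) or more than 20% mitochondrial UMIs (668) were removed, and 1024 doublets were removed with Scrublet, run per library at an assumed rate of 6% and a score limit of 0.25, which left 24993 of 27700. On logged counts, with every cell brought to a total of 10000, 2000 variable genes without the members, 30 principal components, 15 neighbours and Leiden clustering at resolution 1.0, with no correction between libraries, were computed in scanpy 1.11.5 (Python 3.11.15, leidenalg 0.10.2). A cluster was named from marker lists when 3 or more markers were each in 20% or more of its cells and their mean log2 level stood 1.0 or more above the median cluster. Where lists came within 1.0 of each other, the one with more markers among the cluster's leading genes gave the name. The tuft-like class was named so, with means of 2.74 for tuft and 3.04 for epithelial markers. Natural killer cells lie within the T cell-like clusters.

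Levels are CPM of summed UMIs with exact Poisson 95% intervals in classes of 50 or more cells, and by library in 20 or more cells; a floor is 3 counts. The total UMIs of a class in a library set the precision, and the smallest total was 65946. Levels by library are given for the Timp genes and for the 8 Mmp, 8 Adam and 8 Adamts members highest in their leading class, and for other members where needed to account for all; of each pathway list the 2 highest genes are named. The members and lists were chosen with earlier results of these data known. Each barcode suffix was treated as 1 unassigned library, so no test between groups was possible. Gene coordinates are from GENCODE M21, which matched 30934 of 31053 identifiers, and start regions from RefSeq on GRCm38.p6. On simulated counts per class, the recovery of a raised leading class and the coverage of the intervals were tested. The clustering and the naming of clusters were not simulated. Alternatives changed the cell filters, doublet removal, clustering, class definition, pooling and libraries used.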

Additional observations from a re-analysis of the deposited data

How the results depend on the processing

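The number of members led by fibroblast-like cells (16) lay between 14 and 20 under every alternative, and the number led 2-fold or more (27) between 23 and 35. The number with 1 leading class in every library (25) was 38 without library 3 and lay between 23 and 33 otherwise; with 1 library fewer there is 1 condition fewer to meet. Of the 55 leading classes, 38 were kept without library 3, 51 without library 1, 51 without library 2, 49 with a per-cell marker gate and 43 when a class needed 20 UMIs of the gene, an alternative chosen after seeing the data. Without library 3 the lymphatic endothelial-like and Schwann/glia-like classes had fewer than 50 cells and could not lead. Timp2 and Adam10 were then led by mesothelial-like, Timp3 by pericyte-like, Adamts9 by endothelial-like, Adam9 by mesothelial-like, Mmp15 by tuft-like and Adam23 and Adam11 by dendritic-like cells. With libraries weighted equally, Timp2 was led by mesothelial-like and Timp3 by pericyte-like cells. The limit of 20 UMIs set the number of members, which was 65 at 1 UMI, 51 at 100 UMIs and 56 with symbols ending in a letter. Members were present in 221 pairs of gene and class at 10 CPM, 250 at 5 CPM and 184 at 20 CPM. Of 442 gene values under the alternatives, 292 lay within the interval of the reported value. Levels moved by over 1.5 times when doublets were kept (Mmp9 to 269 and Adam8 to 292 CPM in neutrophil-like cells), under the per-cell marker gate (Adam23 to 524 and Adam11 to 221 CPM in Schwann/glia-like cells) and with a mean over cells (Mmp12 to 219, Adam23 to 558, Adam11 to 188, Adam33 to 155 and Timp1 to 120.3 CPM in their leading classes). Leaving out library 3 moved the levels of Timp4, Adamts15, Adamts10, Adam33, Adam15 and Adamts5 by over 1.5 times as well, as given above. The cause of these moves was not tested. Leaving Mmp7 out of the Mmp sums, also chosen after seeing the data, gave 10 classes with a ratio above 1, against 9 with it. No paired analysis was possible because each library is 1 pool and the labels give no replicate numbers. Depth limits classes of few cells: 12 leading classes rested on fewer than 20 UMIs.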
